A study of Rattus norvegicus with 6 samples.

Results

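The genes of the rat major histocompatibility complex (MHC), which carry the prefix RT1, were followed in lists of genes with a peak of trimethylated lysine 27 of histone H3 (H3K27me3), together with 6 genes that assemble or control MHC molecules (Tap1, Tap2, Tapbp, B2m, Ciita and Cd74). Members were chosen by symbol from the union of the lists, which gave 35 entries of 22427 genes: 30 RT1 genes, Tap1, Tapbp, B2m, Ciita and Cd74. Tap2 had no entry. The choice went by name among genes that at least 1 library lists, so a gene listed nowhere could not be a member, and it was made with earlier results of these data known.

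The libraries came from primary cardiomyocytes of newborn Sprague Dawley rats, cultured in medium with serum. Control cells received phosphate-buffered saline (PBS), and treated cells received 5 mM α-ketoglutarate (α-KG), a tricarboxylic acid cycle metabolite that JmjC histone demethylases consume, during 24 h. There were 2 H3K27me3 libraries per group, numbered in the labels as control 1 and 2 and α-KG 1 and 2, and the 2 input samples were not analysed here. The labels name no separate cultures or pools of animals behind the replicates, so the spread between libraries may be technical.

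Each deposited list says only that a gene had a peak, so the value of a member in a library is listed or not listed. Peak strength, peak position and read depth are unknown, so absence from a list can mean no mark or a mark too weak to call. The lists of controls 1 and 2 held 17245 and 18442 genes and those of α-KG 1 and 2 held 18120 and 19181, which are 76.9%, 82.2%, 80.8% and 85.5% of all genes listed in any library. The cultures were not sorted. A listed marker gene does not show which cells carried the peak. Of 11 immune and antigen-presenting cell marker entries, the 4 libraries in the same order listed 8, 10, 6 and 8. The cardiomyocyte markers had 10 entries, with 7, 7, 7 and 8 listed. Among the cardiomyocyte markers Myh6 had no entry, and among the immune markers Cd68, Itgax, Cd3e and Cd79a had none.

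MHC class I molecules present peptides from inside the cell to CD8 T cells and pair with β2-microglobulin, the product of B2m. In the rat, RT1-A encodes the classical class I molecules, and the many RT1-CE, RT1-M, RT1-N, RT1-S and RT1-T genes belong to the non-classical class I families. Class II molecules, pairs of α and β chains, present peptides taken up from outside to CD4 T cells and are made mainly by professional antigen-presenting cells. H3K27me3 is placed by Polycomb complexes, mostly on genes held inactive.

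About as many MHC entries were listed in every library as were missing from at least 1. Of the 35 entries, 17 (48.6%) were in all 4 libraries, against 62.8% of all listed genes. The other 18 comprised 8 entries in 1 library (22.9%, against 13.0% of all listed genes), 7 in 2 and 3 in 3. They were unevenly spread over the gene families. RT1-A and RT1-CE genes were in all 4 libraries in 9 of 10 cases and class II genes in 5 of 7. RT1-M, RT1-N, RT1-S and RT1-T genes were in all 4 libraries in 2 of 13 cases and the assembly and control genes in 1 of 5. The class I families were set by letter, and joining them into these larger groups was not part of that choice. The only RT1-T gene, RT1-T18, was in all 4 libraries. These are counts without a test, and neighbouring or related genes can share a peak.

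**Figure D1:**
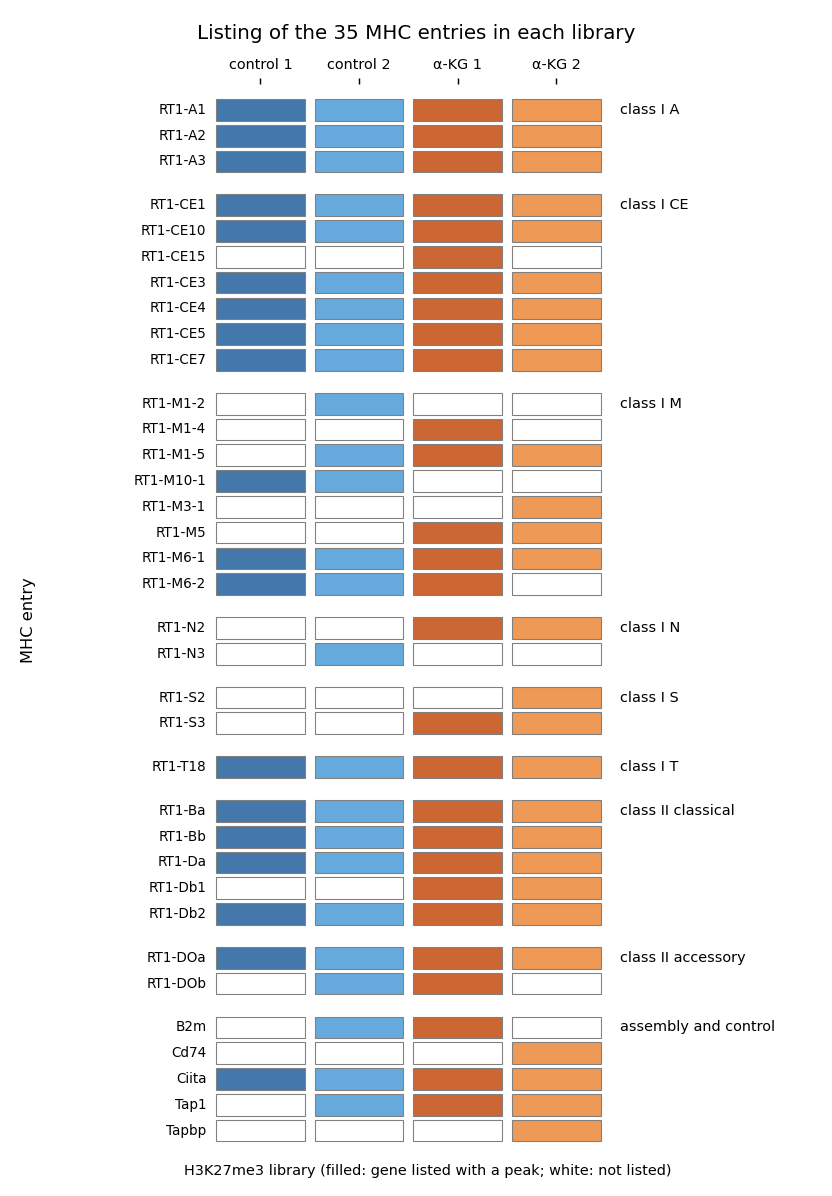
Each row is 1 of the 35 MHC entries, grouped by family, and each column 1 H3K27me3 library; a filled box means that the library lists the gene with a peak and a white box that it does not. All 3 RT1-A genes and 6 of 7 RT1-CE genes are filled in every column, whereas 11 of the 13 RT1-M, RT1-N, RT1-S and RT1-T genes have at least 1 white box.

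The comparison of PBS with α-KG asked whether the metabolite changed where the mark lay. More MHC entries were listed after α-KG. Control 1 listed 19 of the 35 entries, control 2 25, α-KG 1 28 and α-KG 2 27, so both α-KG libraries lay above both controls. All 19 entries of control 1 were also in control 2. The means were 22 ± 4.24 entries in control and 27.5 ± 0.707 in α-KG (SD, n = 2 each), a difference of 5.5 entries or 15.7 percentage points. The exact two-sided permutation test gave p = 0.33, which is the smallest p that 2 against 2 libraries can give. Without control 1 the difference was 2.5 entries and without control 2 it was 8.5. Over all genes the difference was 807 genes or 3.6 percentage points (exact permutation p = 0.667), and there α-KG 1 lay below control 2.

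Set by family, RT1-A and RT1-CE had almost no room for a higher count. Of these 10 genes each control listed 9, so at most 1 could be added; α-KG 1 listed 10 and α-KG 2 listed 9. In the order of controls 1 and 2 and then α-KG 1 and 2, RT1-M, RT1-N, RT1-S and RT1-T genes had 4, 7, 8 and 8 of 13, and class II genes 5, 6, 7 and 6 of 7. Without control 1 the RT1-M, RT1-N, RT1-S and RT1-T counts were thus 7 against 8 and 8, a difference of 1 in place of 2.5. The assembly and control genes had 1, 3, 3 and 4 of 5. The exact two-sided permutation p was 0.33, the smallest possible, for RT1-M, RT1-N, RT1-S and RT1-T, a grouping not set in advance. For class II it was 0.667, and whether the families differed from each other was not tested.

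**Figure D2:**
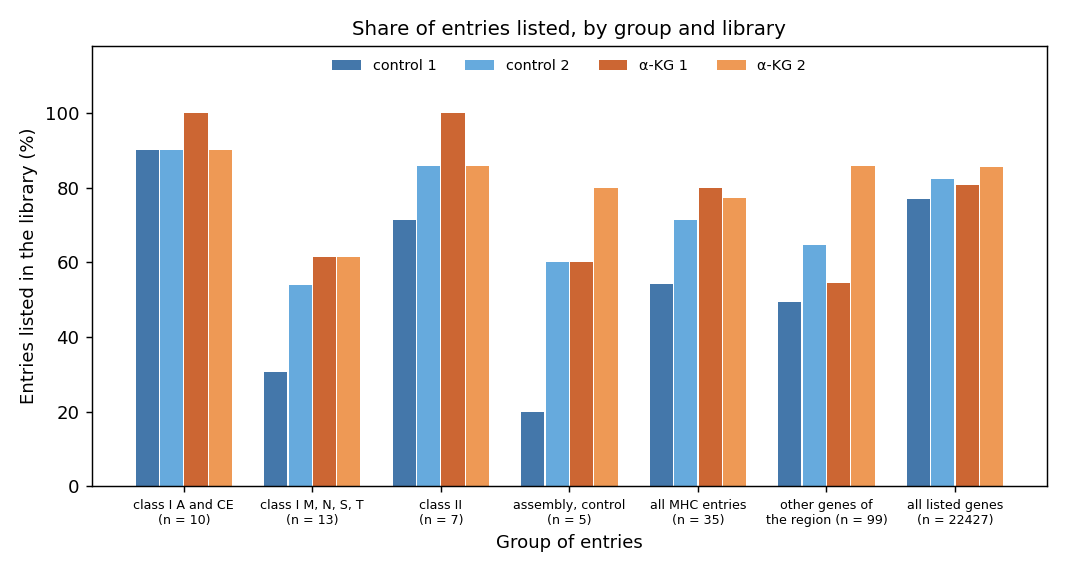
Bars give the percentage of the entries of a group that each library lists, with the number of entries under each group and the other protein-coding genes of the MHC region and all listed genes for comparison. All MHC entries run from 54.3% in control 1 to 77.1% in α-KG 2, with α-KG 1 the highest at 28 of 35, and all listed genes from 76.9% to 85.5%.

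Gain of listing, meaning a gene in both α-KG libraries and in neither control, was seen for 4 of the 23 MHC entries that both α-KG libraries list: RT1-Db1, RT1-M5, RT1-N2 and RT1-S3. Over all genes 4.48% were gained in this sense. Loss, the reverse pattern, was seen for 1 of the 19 entries that both controls list, RT1-M10-1, against 3.22% of all genes. RefSeq (GRCr8) annotates RT1-M10-1 as a long non-coding RNA, although its entry in the lists carries MHC class I domains, and of the 17 protein-coding members of the MHC region in both controls 0 were lost. Without α-KG 1 the gained entries numbered 8 of 27, against 11.9% of all genes, and Cd74, RT1-M3-1, RT1-S2 and Tapbp joined them. Without control 1 the lost entries numbered 3 of 25, against 5.56% of all genes, with RT1-M1-2 and RT1-N3 added. Without α-KG 1 they numbered 2 of 19, against 8.55%, with RT1-M6-2 added. RT1-Db1, RT1-M5, RT1-N2 and RT1-S3 were gained, and RT1-M10-1 lost, whichever library was left out. With at least 1 library left in each group, that follows from the full pattern by construction. These counts carry no test, since each rests on a pattern over 4 libraries.

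The classical class I genes RT1-A1, RT1-A2 and RT1-A3 were listed in all 4 libraries. So were RT1-CE1, RT1-CE3, RT1-CE4, RT1-CE5, RT1-CE7 and RT1-CE10, and RT1-CE15 was listed in α-KG 1 alone. The families are built from similar copies, and reads of such copies can be split between genes by the aligner. Across 496 pairs of member promoters (the 250 bases before the gene start) the median identity was 50.0%. RT1-A2 and RT1-A3 shared 87.6% and RT1-A3 and RT1-CE15 80.8%, although RT1-CE15 was listed in 1 library and RT1-A3 in 4. The RT1 region also differs between rat strains: the reference genome comes from the BN strain and the cells from Sprague Dawley rats, so the listing describes the BN gene copies.

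Promoter sequences from RefSeq (build GRCr8, which differs from the build rn6 of the lists) were matched by symbol for 32 of the 35 entries; RT1-M1-4, RT1-CE7 and Ciita had none in the table. Class I promoters can hold a κB site, bound by NF-κB, an interferon-stimulated response element (ISRE), bound by interferon regulatory factors, and a Y box, bound by NF-Y. The κB core was searched as GGGGATTCC, the ISRE core as GAAANNGAA and the Y box core as CCAAT, on both strands, and none of these matches overlapped another in the promoters shown. The promoters of RT1-A2, listed in all 4 libraries (chr20:4872621-4872870, plus strand), and RT1-S3, gained (chr20:2675278-2675527, plus strand), are shown as 1 example each of a κB match and of an ISRE match; the controls listed RT1-A2 alone, whereas after α-KG neither gene was missing from a library. Capitals mark κB, ISRE and Y box matches.
RT1-A2: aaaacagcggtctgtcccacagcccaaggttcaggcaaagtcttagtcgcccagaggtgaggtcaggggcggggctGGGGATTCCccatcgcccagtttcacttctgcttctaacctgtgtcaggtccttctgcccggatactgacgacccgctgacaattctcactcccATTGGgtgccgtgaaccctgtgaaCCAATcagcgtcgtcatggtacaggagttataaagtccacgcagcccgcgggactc
RT1-S3: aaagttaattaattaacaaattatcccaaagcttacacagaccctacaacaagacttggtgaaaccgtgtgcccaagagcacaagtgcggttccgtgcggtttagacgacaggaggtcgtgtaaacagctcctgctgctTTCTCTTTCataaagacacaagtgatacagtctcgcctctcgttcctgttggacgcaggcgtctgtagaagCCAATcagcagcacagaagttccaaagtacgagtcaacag

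The κB letters were found in all 3 RT1-A promoters, in those of RT1-CE3, RT1-CE4 and RT1-CE10 (3 of 6 RT1-CE promoters), and in no other member promoter. Of the 33469 RefSeq promoters 81 (0.242%) held them, and 9 of those 81 carry an RT1 symbol. Of those 9, RT1-CE11, RT1-CE13 and RT1-CE16 had no entry under these symbols, so they could not be members. The 6 members with the κB letters were listed in all 4 libraries, against 62.8% of all genes. They belong to the RT1-A and RT1-CE families, of which 9 of 10 genes were in all 4 libraries, and RT1-CE1 and RT1-CE5, without the κB letters, were in all 4 as well. The ISRE core was in 6 member promoters, those of B2m, Tap1, Tapbp, RT1-N3, RT1-S2 and RT1-S3, against 8.12% of all promoters. None of these 6 genes was listed in all 4 libraries, a pattern that 62.8% of all genes showed, but they come from families where it was rare (2 of 13 RT1-M, RT1-N, RT1-S and RT1-T genes and 1 of 5 assembly and control genes). No match to these ISRE letters lay in an RT1-A or RT1-CE promoter. Only the exact letters were searched, so an ISRE with other letters would be missed there. After its κB match, RT1-A2 holds ttcacttct, which resembles the ISRE letters of the other strand, TTCNNTTTC, without matching them. The Y box core was in 24 of the 32 member promoters against 34.0% of all promoters. A match describes letters in this window and is not a shown binding site.

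The non-classical RT1-M, RT1-N, RT1-S and RT1-T genes had the most varied listing. RT1-M6-1 and RT1-T18 were the 2 listed in all 4 libraries. RT1-M5 (ENSRNOG00000033136), RT1-N2 (ENSRNOG00000029386) and RT1-S3 (ENSRNOG00000000777) were listed in α-KG 1 and α-KG 2 and in neither control. RT1-M10-1 (ENSRNOG00000033362) was listed in control 1 and control 2 and in neither α-KG library. RT1-M1-5 was missing from control 1 alone and RT1-M6-2 from α-KG 2 alone. The remaining 5 genes were in 1 library each, RT1-M1-2 and RT1-N3 in control 2, RT1-M1-4 in α-KG 1, and RT1-M3-1 and RT1-S2 in α-KG 2. RT1-M3-1 is the rat counterpart of mouse H2-M3, which presents formylated peptides, and RT1-S3 that of H2-T23 (Qa-1), a ligand of natural killer cell receptors. Listing in α-KG 2 alone was common in the whole series (6.96% of genes), more than in control 1 alone (1.73%), control 2 alone (2.27%) or α-KG 1 alone (2.03%).

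RT1-M6-1 and RT1-M6-2, neighbours on the chromosome, had the most similar promoters of any pair, with 96.0% identity (242 identical positions, 6 mismatches and 4 gap positions), and yet 1 was listed in all 4 libraries and the other was missing from α-KG 2. Their promoters lie at chr20:1571221-1571470, plus strand, and chr20:1588283-1588532, plus strand, in GRCr8. Capitals mark the bases that differ in the alignment.
RT1-M6-1: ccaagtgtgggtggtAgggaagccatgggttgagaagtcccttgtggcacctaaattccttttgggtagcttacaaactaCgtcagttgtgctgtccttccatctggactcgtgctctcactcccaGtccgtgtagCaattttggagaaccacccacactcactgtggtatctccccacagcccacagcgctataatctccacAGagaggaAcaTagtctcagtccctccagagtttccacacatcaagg
RT1-M6-2: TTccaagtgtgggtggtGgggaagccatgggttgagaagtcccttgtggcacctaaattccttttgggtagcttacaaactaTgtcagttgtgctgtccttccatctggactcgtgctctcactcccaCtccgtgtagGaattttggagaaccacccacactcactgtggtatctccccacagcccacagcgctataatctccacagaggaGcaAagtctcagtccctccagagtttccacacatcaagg

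With copies this close, the listing of 1 copy and not the other cannot be told apart from a different division of the same reads.

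The classical class II genes were mostly listed throughout. RT1-Ba and RT1-Bb, the α and β chain genes of the RT1-B molecule, and RT1-Da and RT1-Db2, chain genes of the RT1-D molecule, were in all 4 libraries. RT1-Db1 (ENSRNOG00000033215), the other β chain gene of RT1-D, was listed after α-KG in both libraries and in no control. RT1-DOa, a chain of the accessory molecule that restrains peptide loading, was in all 4 libraries, and its partner RT1-DOb was in control 2 and α-KG 1. The loading factor genes RT1-DMa and RT1-DMb had no entry under these symbols.

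Class II promoters share an X box, bound by the RFX complex, followed by a Y box, and both serve the coactivator CIITA. The X box core was searched as AGNNACNGA on both strands and found in 6 of the 7 class II promoters (not RT1-Ba) and in 5 of the other 25 member promoters, against 14.6% of all promoters. The promoters of RT1-Db1 (chr20:4560163-4560412, minus strand) and RT1-Db2 (chr20:4541596-4541845, minus strand) are shown whole because these sister genes differed in listing. Those of RT1-Da (chr20:4515322-4515380, plus strand), RT1-Bb (chr20:4604165-4604222, minus strand) and RT1-DOb (chr20:4627592-4627647, minus strand) are shown from X box to Y box with 10 bases on each side. Capitals mark X box and Y box matches in the whole promoters, and in the shorter stretches the X box match and the Y box that follows it.
RT1-Db1: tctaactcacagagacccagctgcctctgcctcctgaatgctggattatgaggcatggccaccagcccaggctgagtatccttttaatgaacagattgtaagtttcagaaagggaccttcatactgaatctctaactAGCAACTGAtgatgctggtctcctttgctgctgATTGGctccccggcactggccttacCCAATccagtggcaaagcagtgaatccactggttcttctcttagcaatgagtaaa
RT1-Db2: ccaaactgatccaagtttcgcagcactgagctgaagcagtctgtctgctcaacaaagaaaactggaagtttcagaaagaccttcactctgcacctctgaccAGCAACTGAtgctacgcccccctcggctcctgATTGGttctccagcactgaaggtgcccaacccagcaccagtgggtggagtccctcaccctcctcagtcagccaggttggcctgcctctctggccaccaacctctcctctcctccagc
RT1-Da: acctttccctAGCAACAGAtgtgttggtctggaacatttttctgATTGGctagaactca
RT1-Bb: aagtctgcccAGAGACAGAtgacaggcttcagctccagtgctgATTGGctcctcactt
RT1-DOb: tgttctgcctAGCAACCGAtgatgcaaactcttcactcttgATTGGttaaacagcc

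In these 5 promoters and in that of the class I gene RT1-CE10, the Y box letters, read as ATTGG, followed the X box after a gap of 22 to 25 bases. An X box followed by ATTGG within 15 to 30 bases, on either strand, was found in 52 of 33469 RefSeq promoters (0.155%), and 6 of the 52 were these members. RT1-Db1 and RT1-Db2 both held the arrangement, and their promoters shared 53.8% of aligned positions. The X and Y box letters therefore did not separate the gained gene from the gene listed in all 4 libraries. Among the 6, RT1-Da, RT1-Db2, RT1-Bb and RT1-CE10 were in all 4 libraries, RT1-Db1 was gained and RT1-DOb was in control 2 and α-KG 1.

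The genes that assemble and control MHC molecules varied in their listing. Ciita, which encodes the class II transactivator, was in all 4 libraries. Tap1, a subunit of the peptide transporter of the endoplasmic reticulum, was in control 2 and both α-KG libraries. B2m was in control 2 and α-KG 1. Tapbp, which encodes the peptide-loading factor tapasin, and Cd74, the invariant chain of class II molecules, were in α-KG 2 alone.

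Other genes of the pathway, on a list that holds none of the members, were listed in all 4 libraries in 24 of 34 cases (70.6%, against 62.8% of all genes). Of the 25 in both controls 0 were lost, against 3.22% of all genes, and of the 27 in both α-KG libraries 0 were gained, against 4.48%; with so few genes, a count of 0 is near these shares. The controls listed 26 and 29 of them and the α-KG libraries 28 and 32. The RFX genes Rfx5 and Rfxap, the interferon response genes Irf1, Jak1, Jak2, Ifngr1 and Ifngr2, and the immunoproteasome genes Psmb8 and Psmb9, which flank Tap1, were in all 4. Nlrc5, the class I counterpart of Ciita, was in control 2 and both α-KG libraries, the same libraries as Tap1. The 10 entries not in all 4 included Psmb10 in control 1 alone, Irf2 in α-KG 1 alone, and Psme1, Lgmn and Ifi30 in α-KG 2 alone.

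The place of the genes along the chromosome was taken from the RefSeq gene order of GRCr8, used for names and neighbours. The stretch from RT1-M3-1 to Tapbp holds 32 of the members. The 6 RT1-CE genes that all 4 libraries list stand next to each other among genes with an entry, from RT1-CE10 to RT1-CE1, and with Ddx39b they form the longest run of such genes in the stretch (7 genes). The next longest, 5 genes, ends with RT1-A3, RT1-A2 and RT1-A1. A run of 4 genes ends with RT1-Da and RT1-Db2, and another of the same length, from Ehmt2 to Nelfe, holds no member. RT1-Db1 stands between RT1-Db2 and RT1-Ba, both in all 4 libraries. Among genes with an entry, RT1-N2 and RT1-S3 belong to a cluster of 4 neighbours with RT1-S2 and RT1-N3. Of the 4, control 1 listed 0, control 2 1 (RT1-N3), α-KG 1 2 and α-KG 2 3. RT1-N2 and RT1-S3 were already called gained, so their part in these counts is fixed by that pattern.

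**Figure D3:**
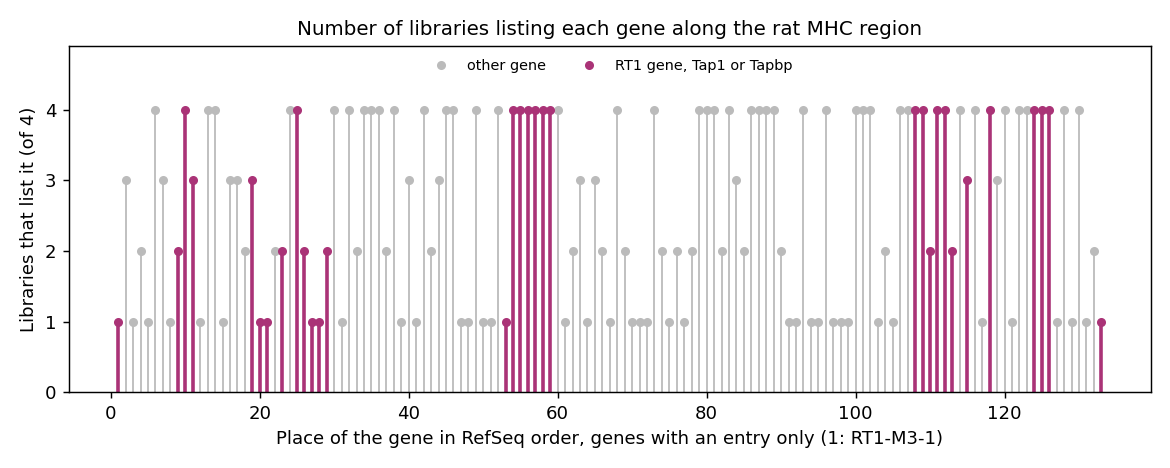
Each stem is a gene with an entry in any library, placed in RefSeq order from RT1-M3-1 to Tapbp (x axis, place in order and not distance), and its height is the number of libraries of 4 that list it. The RT1-CE run and the RT1-A genes stand at 4, whereas the first 29 places hold RT1 genes at 1, 2, 3 and 4.

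The other protein-coding genes of the same stretch were listed differently across libraries. Of 99 with an entry, 39 (39.4%) were in all 4 libraries, against 62.8% of all genes. Of 45 in both controls 1 was lost, against 3.22% of all genes. Of 48 in both α-KG libraries 4 were gained, against 4.48% of all genes. The controls listed 49 and 64 of them and α-KG 1 and 2 listed 54 and 85. Thus their highest value was in α-KG 2, and α-KG 1 lay between the controls. In α-KG 2 alone 23 of them (23.2%) were listed, against 6.96% of all genes. Their difference between α-KG and control was 13.0 genes or 13.1 percentage points (exact two-sided permutation p = 0.667), beside 15.7 points for the MHC entries, and the 2 differences were not tested against each other. The neighbours matched by symbol include Psmb8 and Psmb9, which also stand on the pathway list.

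Beyond the motifs, the CpG content of the promoters was counted, since Polycomb marks in mammals often lie over CpG-rich starts. The 32 member promoters held a median of 4.5 CpG in 250 bases, with a range of 0 to 19, against 5 for all RefSeq promoters. Members in all 4 libraries had a median of 5 (n = 15) and the other members 4 (n = 17). RefSeq promoters matched by symbol to any gene listed in all 4 libraries had a median of 15 (n = 8686 promoters). Genes without such a match were left out. Promoters matched to genes listed in 1, 2 and 3 libraries had medians of 11, 10 and 10. The matched promoters at each level thus had more CpG than the member medians of 5 and 4. RT1-A and RT1-CE promoters had a median of 10, RT1-M, RT1-N, RT1-S and RT1-T promoters 3.5, class II promoters 3 and those of the assembly and control genes 14.5. RT1-Da, in all 4 libraries, had 0 CpG, and Tapbp, in 1 library, had 19. These are descriptions over related genes that share sequence, without a test.

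**Figure D4:**
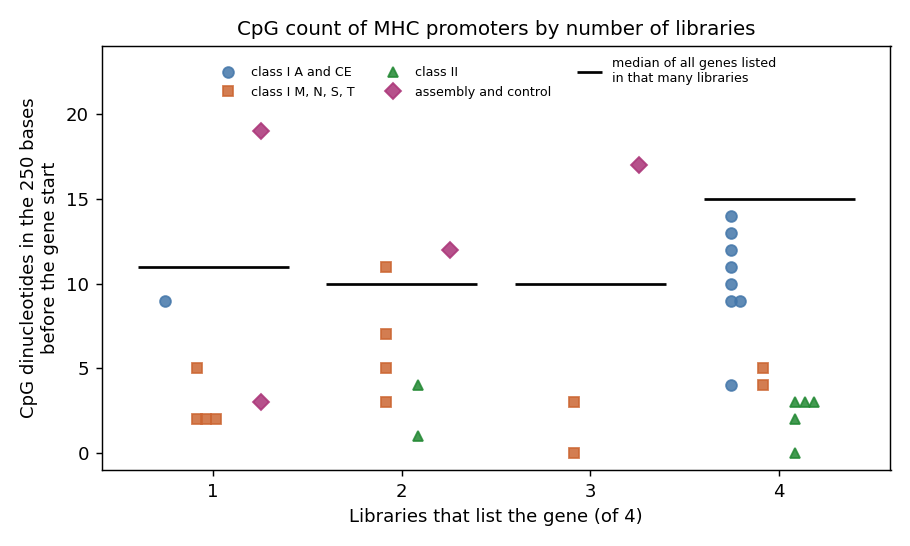
Points are member promoters, placed by the number of libraries of 4 that list the gene (x axis, shifted sideways by family). The y axis is the number of CpG in the 250 bases before the gene start. Black lines, labelled as all genes, are medians over RefSeq promoters matched by symbol to genes listed in that many libraries. The 15 members in all 4 libraries lie at 0 to 14 CpG, below the median of 15 for the matched promoters of genes in all 4.

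The deposited lists also give protein domains. Of the 35 entries, 31 carry a domain named for the MHC and 32 an immunoglobulin C1-set domain. A further 19 entries carry a domain named for MHC class I, class II or a class I/II-like fold, under another symbol or none. Some, such as Procr and Raet1e, carry the class I/II-like domain alone. Of the 19, 10 were in all 4 libraries (52.6%, against 62.8% of all genes). Of 13 in both controls 0 were lost, against 3.22% of all genes. Of 11 in both α-KG libraries 0 were gained, against 4.48%. The 19 were listed evenly, with 14 in each control and 15 in each α-KG library. Of the 19, 12 have no symbol, so some of those may be RT1 copies that the choice by symbol left out. With these 19 added, the difference was 6.5 of 54 entries. A C1-set domain was carried by 27 entries that are not members. They include some of the 19, among them Azgp1, Mr1, Cd1d1, Hfe and Mill1, so the groups overlap. Of the 27, 15 were in all 4 libraries (55.6%, against 62.8% of all genes). Of 21 in both controls 2 were lost, against 3.22% of all genes, and of 19 in both α-KG libraries 1 was gained, against 4.48%. RefSeq names 50 protein-coding genes that fit the choice by symbol, of which 16 had no entry under that symbol or an older one, among them RT1-CE2, RT1-CE11, RT1-CE12, RT1-CE13, RT1-CE16, RT1-T24-1 and RT1-Ha. Whether those lacked the mark or stand in the gene models behind the lists under another name was not tested.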

How the data were processed

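Per the file names and contents, the authors deposited for each H3K27me3 library a list of genes with a peak (Ensembl ID, symbol and protein domains) without header, count, score or position. CASAVA, BWA, MACS2 and build rn6 are named in the submitters' processing notes, without roles or versions. Not given in the sources used here: whether input was used, how peaks were joined to genes, and how reads that fit several gene copies were placed. Read depth is unknown, so no interval was computed.

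Groups and replicate numbers came from the labels. Python 3.11.15 with pandas 2.3.3 read the lists, promoter identity was taken from global alignment with Biopython 1.88, and figures were drawn with matplotlib 3.10.9. The number of members per library was tested by exact permutation of the 4 libraries, two-sided; loss, gain and listing in all 4 libraries were counted beside all genes. Members, lists and the rule that names every member were chosen with earlier results of these data known. Motifs, CpG counts, gene order and the C1-set comparison were added after the lists were seen. Class I families were set by letter. Joining RT1-A with RT1-CE, and RT1-M with RT1-N, RT1-S and RT1-T, was not set in advance. Alternatives tried: each library left out in turn, the replicate block, distinct symbols, RT1 symbols alone, and added MHC-domain entries.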

Additional observations from a re-analysis of the deposited data

How the results depend on the processing

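The difference in listed MHC entries, 5.5, was 2.5 to 8.5 without 1 library. Both α-KG libraries lay above both controls, so those differences had to be positive by construction. By distinct symbols the difference was again 5.5, which was also fixed, since no member symbol occurs more than once. For RT1 symbols alone it was 4, and with the other MHC-domain entries 6.5. These settings hold different numbers of entries, 35 in the main setting and 30 for RT1 symbols alone, so the differences are not shares. The 19 added MHC-domain entries by themselves were 14 in each control and 15 in each α-KG library. The exact permutation p stayed between 0.33 and 0.667, and no setting of 2 libraries a group could pass 0.05. Without 1 library, lost entries numbered 1 to 3, gained entries 4 to 8 and entries in every library left 17 to 19. Fewer libraries then had to share a pattern, and the shares over all genes rose as well. All genes had 5.56% lost without control 1, and 8.55% lost and 11.9% gained without α-KG 1. The shares over all genes were not computed for every setting, so these ranges are no result about the members. With the MHC-domain entries added, 27 entries were in all 4 libraries, because 10 of the 19 added were. Distinct symbols and RT1 symbols alone left 1 lost and 4 gained.

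With the replicate number as a replicate block the difference was 5.5 (exact sign-flip p = 0.5, the smallest that 2 pairs can give), from 9 entries for number 1 and 2 for number 2. Same-numbered libraries deviated together only weakly over all 22427 genes (correlation 0.0478), and over the 35 MHC entries the correlation was -0.274. The numbers may thus not mark pairs. Depth is unknown, so a member missing from a list cannot be read as lacking the mark.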

Other observations

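Class I-like genes outside the MHC had 7 entries, all of them among the 19 MHC-domain entries already described. Cd1d1, which presents lipids, Hfe, a regulator of iron uptake, Azgp1 and the natural killer ligand gene Raet1e were in all 4 libraries. Procr, the protein C receptor gene, was missing from α-KG 1 alone, Mr1, which presents vitamin metabolites, was in control 2 and α-KG 2, and Mill1 was in α-KG 1 alone. None of the 7 was lost (0 of 5 in both controls, against 3.22% of all genes). None was gained (0 of 4 in both α-KG libraries, against 4.48%). On a list of 99 names from the MHC region, 83 entries were matched. Most of them are among the other protein-coding genes of the stretch described above, so the counts overlap. The controls listed 39 and 53 of the 83 entries, and α-KG 1 and 2 listed 44 and 73. Of the 36 of these entries in both controls 1 was lost, Ddah2, against 3.22% of all genes. Of the 40 in both α-KG libraries 4 were gained, Bag6, Dxo, Rgl2 and Rpp21, against 4.48% of all genes. The lost and gained genes here are the same ones counted among those protein-coding genes, where Rgl2 has the RefSeq symbol Ralgdsl2. Fibroblast markers had 7, 5, 4 and 6 of 7 entries in that order of libraries and endothelial markers 4, 6, 5 and 5 of 6.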
